A study of Mus musculus with 8 samples.

Results

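Ribosome biogenesis is the assembly of ribosomal subunits in the nucleolus, and the 48 genes described here encode small nucleolar ribonucleoprotein (snoRNP) subunits, pre-ribosomal RNA processing and assembly factors, RNA polymerase I subunits and nucleolar chaperones. They were taken by name from a list of the machinery, and their expression was read in LSK cells, which lack lineage markers, carry Sca1 and Kit and hold the blood stem cells and earliest progenitors of the marrow. All 48 were found among the 24112 genes of the tables, and all 48 passed the filter on low values, which left 11276 genes. The list was drawn up after Nhp2 and Rrp9 had been seen to be higher without Traf6. Those 2 genes are therefore no independent support for the pattern, and the counts of the main fit are also given without them. Counts by abundance, with other normalization or library weights, or with libraries left out include them. The other members were also chosen with earlier results of these data known, so the counts without the 2 genes are not independent support either.

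The LSK cells were sorted from C57BL/6 mice that had received bone marrow transplants. Donor marrow carried Vav-Cre, a recombinase expressed in blood cells, either alone (labelled wild type, WT, 4 libraries) or with deletion of Traf6 (KO, 4 libraries), so the Cre was present in both groups. TRAF6 is a ubiquitin ligase that acts between innate immune receptors and NF-κB, and the study asked whether it keeps a basal level of that signalling in blood stem cells. Nothing in the labels assigns each library to its own animal; p-values here therefore describe library-to-library spread, which may be technical.

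Values are RPKM, reads scaled by gene length and by library depth, and the estimated depth was 19.3 to 24.9 M reads in WT and 22.55 to 30.65 M in KO. Lane 5 held KO3 and KO4 and no WT library, and lane 4 held the other 6. KO3, KO4 and, in lane 4, WT2 each stood apart from the rest on 1 of the first 3 principal components, and WT2 listed 12943 genes at 0 against 11142 to 11358 in the other WT libraries. Of 3943 genes with a mean of at least 20 RPKM, KO3 listed 175 at 0 and KO4 listed 61, so such a gene is described below only as listed at 0. Traf6 was at 3.52 to 14.9 RPKM in WT and at 0 to 0.818 in KO. The LSK markers Kit and Ly6a, which encodes Sca1, were present in all 8 libraries, at 50.6 to 113 and 6.53 to 11.8 RPKM. Of the lineage markers, the B cell genes Ms4a1, Cd79a, Pax5 and Igll1 and the T cell gene Cd3g were listed at 0 in every library. Other markers were present in all 8, among them the B cell gene Cd79b at 4.78 to 16.3 RPKM, Nkg7 of the T and NK cell list at 376 to 723 and the NK cell gene Klrb1c at 0.387 to 8.20.

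Ribosomal RNA is transcribed in the nucleolus by RNA polymerase I as a long precursor. Box C/D snoRNPs guide 2′-O-methylation of that precursor and box H/ACA snoRNPs guide its pseudouridylation, while the U3 snoRNP and the small subunit processome make the early cuts, and further factors build the small and large subunits and accompany them out of the nucleolus. Stem cells are known to keep protein synthesis low compared with the progenitors they give rise to. MYC is a known activator of many genes of this machinery, and its binding sequence, the E-box, has the letters CACGTG.

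The promoters of the 5 members with the smallest p are shown so that the letters near their starts can be compared. RefSeq windows (build GRCm38.p6) that run from 250 bases before to 50 bases after the start were matched for 43 of the 48 members. The 250 bases before the start of these 5 members read as follows, 5′ to 3′, with capitals marking CACGTG and CCGGAA, the core of the ETS family binding sequence, or its reverse complement TTCCGG.
Nhp2, chr11:51619523-51619772, plus strand: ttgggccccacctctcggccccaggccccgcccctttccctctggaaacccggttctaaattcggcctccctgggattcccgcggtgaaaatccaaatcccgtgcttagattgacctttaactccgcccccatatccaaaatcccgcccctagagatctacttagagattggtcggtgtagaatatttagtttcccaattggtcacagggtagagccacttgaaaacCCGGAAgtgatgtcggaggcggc
Rrp9, chr9:106477059-106477308, plus strand: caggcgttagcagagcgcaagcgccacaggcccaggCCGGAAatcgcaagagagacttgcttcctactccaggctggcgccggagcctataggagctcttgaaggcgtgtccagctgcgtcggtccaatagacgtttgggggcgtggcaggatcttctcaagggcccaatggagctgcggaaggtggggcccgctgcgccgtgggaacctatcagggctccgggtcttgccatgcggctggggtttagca
Wdr74, chr19:8735589-8735838, plus strand: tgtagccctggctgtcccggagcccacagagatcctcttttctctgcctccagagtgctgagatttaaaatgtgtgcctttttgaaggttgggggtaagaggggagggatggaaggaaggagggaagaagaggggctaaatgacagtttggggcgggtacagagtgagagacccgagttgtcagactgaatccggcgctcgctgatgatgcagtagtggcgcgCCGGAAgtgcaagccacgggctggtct
Heatr1, chr13:12395125-12395374, plus strand: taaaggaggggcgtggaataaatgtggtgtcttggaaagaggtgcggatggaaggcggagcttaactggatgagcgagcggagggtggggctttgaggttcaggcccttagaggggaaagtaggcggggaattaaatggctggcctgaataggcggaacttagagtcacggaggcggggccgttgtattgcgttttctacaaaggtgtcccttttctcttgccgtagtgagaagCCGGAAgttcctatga
Nop2, chr6:125131633-125131882, plus strand: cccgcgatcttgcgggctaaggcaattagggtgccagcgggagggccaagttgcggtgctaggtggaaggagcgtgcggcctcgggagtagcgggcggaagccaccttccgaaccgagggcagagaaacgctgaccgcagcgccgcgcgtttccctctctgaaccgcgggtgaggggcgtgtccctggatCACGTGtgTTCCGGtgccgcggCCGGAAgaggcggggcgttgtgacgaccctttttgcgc

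CCGGAA lay 23 bases before the start in Nhp2, 27 in Wdr74 and 16 in Heatr1, close to the start in all 3, whereas in Rrp9 it lay 214 bases before it. Nop2 held TTCCGG at 52 and CCGGAA at 38 bases before the start, and of these 5 it alone held CACGTG, at 60 bases before. Over the whole 300 base windows, searched on both strands, CCGGAA was found in 24 of 47 member windows (51.1%), in 28.6% of the windows of all genes tested and in 14.9% of all RefSeq windows. CACGTG was found in 11 of 47 member windows (23.4%), against 10.2% and 7.15%. Of the 8 members without overlap between the groups, Fbl had no window. Among the 7 windows of the others, 6 held CCGGAA and 1 held CACGTG. These members were picked by their values in the same libraries, and a link between either motif and the difference was not tested. The window of Gnl3, whose log2 difference of 0.80 came with a wide spread, held 0 of either. The 2 motifs do not overlap each other in letters, and a match is a description of the sequence only.

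Most members were somewhat higher in KO, but 23 of 48 lay within 1 SE of no difference. Besides Nhp2 and Rrp9, the members higher at an unadjusted limma p under 0.05 were Fbl, Heatr1, Wdr74, Nop2 and Ppan. Among RNA polymerase I genes and among nucleolar chaperones and scaffolds, 0 of 6 were. The log2 difference, KO minus WT on the log2(RPKM + 1) scale, was above 0 in 41 of 48 members, where 39% of all genes tested were above 0. No member passed limma's threshold of an adjusted p under 0.05 over all 11276 genes, and neither did any other gene (0 of 11276, 0%), although 847 genes had an unadjusted limma p under 0.05. The smallest adjusted p of any member was 0.441. At an unadjusted p under 0.05, 7 of 48 members (14.6%) were higher in KO and 0 were lower, where 2.77% of all genes tested were higher and 4.74% were lower. Without Nhp2 and Rrp9 the count was 5 of 46 (10.9%). When libraries were weighted by their fit to their group, which gave KO2 a weight of 6.50 against 1.502, 0.137 and 0.351 for KO1, KO3 and KO4, limma had 14 members higher at an unadjusted p under 0.05, where 8.13% of all genes were, and called 4 members higher at an adjusted p under 0.05, where 0.594% of all genes were. They were Rrp9 (1.34, adjusted p = 0.0114), Wdr74 (0.96, 0.0262), Nhp2 (0.70, 0.0299) and Bop1 (0.96, 0.0469), calls in which KO2 counted for more than the other 3 KO libraries together. Rrp9 and Nhp2 had been seen to be higher before the list was drawn up.

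In 8 of 48 members (16.7%) all 4 KO values lay above all 4 WT values, against 2.05% of all genes tested, and in 0 members did they lie below, against 3.88%. Without Nhp2 and Rrp9 these were 6 of 46 (13.0%). The median log2 difference of the members was 0.23 and that of all genes tested was -0.14, 0.37 apart. The members are abundant transcripts, with a median of 38.3 RPKM over the libraries against 12.5 for all genes tested, and abundant genes were more often higher. Among genes with a mean of at least 20 RPKM, 5.08% were higher at an unadjusted p under 0.05 and 3.23% had no overlap, against 6 of 39 members (15.4%) and 7 of 39 (17.9%). In that class the median was 0.23 for members and -0.01 for all genes, and 34 of 39 members and 48.7% of all genes were above 0. With quantile normalization, which puts all libraries on the same distribution, the median of all genes was -0.00084 in place of -0.14 and that of the members was 0.19, so the gap of 0.37 became 0.19. Then 5 members were higher at an unadjusted p under 0.05, against 3.97% of all genes, and 7 had no overlap, against 2.55%, while 38 of 48 members and 50.0% of all genes were above 0.

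**Figure D1:**
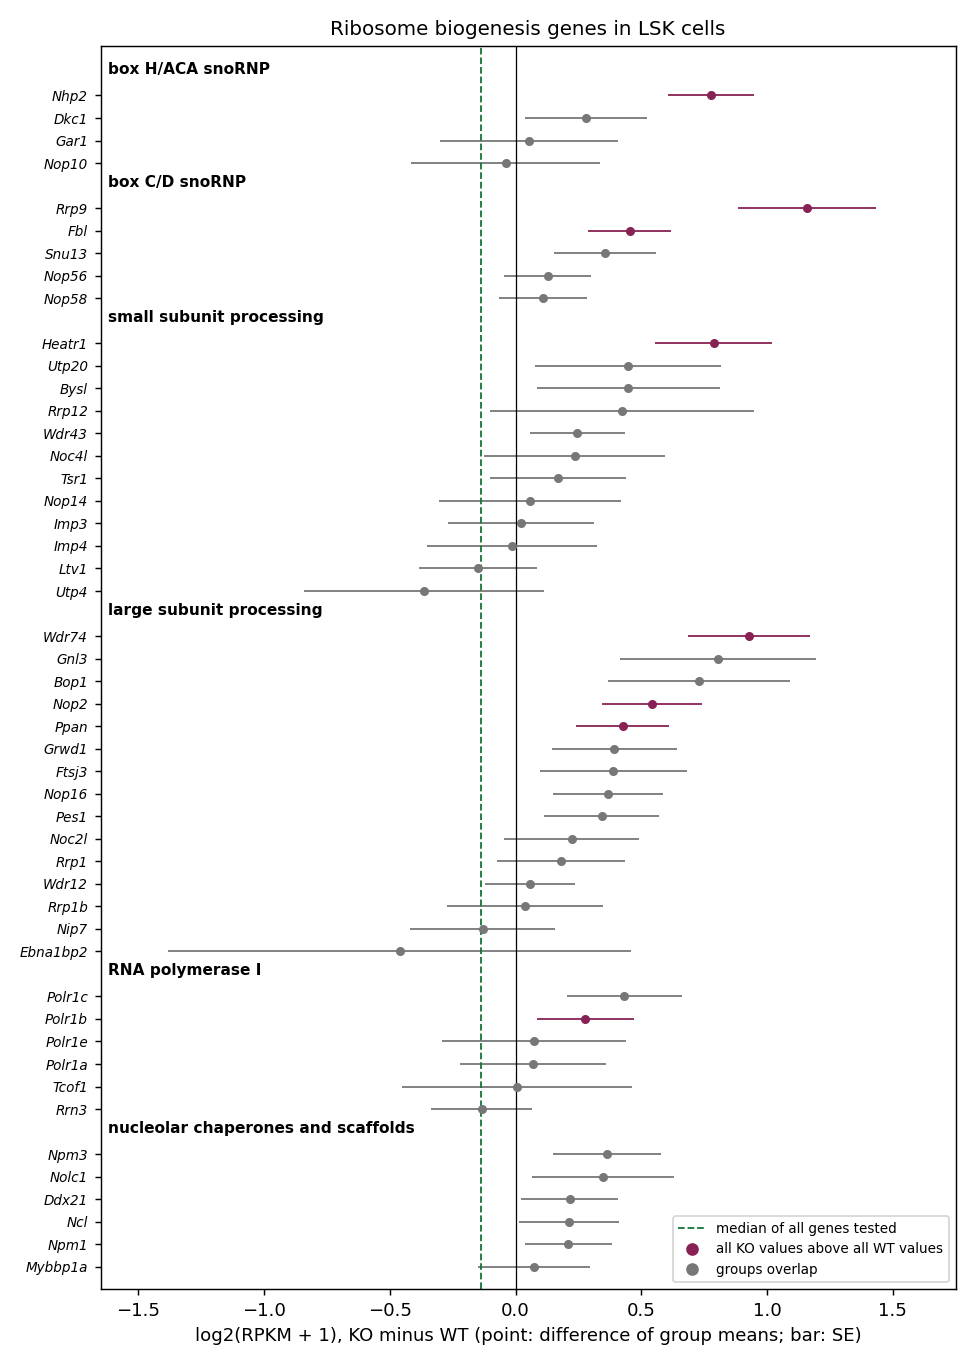
Each point is the difference of the 4 KO and 4 WT library means of log2(RPKM + 1) for a member, grouped by role, each bar is its SE and the dashed line is the median of all genes tested (-0.14). Of the points, 41 of 48 lie above 0 and the 8 coloured members have all KO values above all WT values; with quantile normalization 38 of 48 members and 50.0% of all genes were above 0.

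The box H/ACA snoRNP has 4 core proteins, and their differences were uneven. NHP2, an RNA-binding core protein, had the smallest p of all members. Nhp2 (Entrez 52530) was at 56.3, 64.7, 47.5 and 56.6 RPKM in WT1 to WT4 and at 95.8, 84.6, 104 and 103 in KO1 to KO4. Every KO library was above every WT library, the means were 56.3 ± 7.04 and 97.0 ± 9.07 RPKM (SD, n = 4), and the log2 difference was 0.78 ± 0.17 (SE), with a limma adjusted p of 0.441.

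Dkc1 (245474), which encodes the pseudouridine synthase dyskerin, was at 135, 143, 103 and 134 RPKM in the WT libraries, with KO values of 135, 128, 254 and 131. Its log2 difference of 0.28 ± 0.24 rested on KO3, and the other 3 KO values lay within the WT range. Nop10 (66181), a small protein that joins dyskerin and NHP2, was at 107, 93.0, 111 and 165 RPKM in the WT libraries, with KO values of 157, 146, 47.1 and 150. Here KO3 was the lowest of all 8 libraries; the log2 difference was -0.04 ± 0.38, and it became 0.38 without KO3 and 0.07 with each library centred on its median. Gar1 (68147), the fourth core protein gene, was at 19.4 to 27.3 RPKM in the WT libraries, with KO values of 30.8, 33.9, 35.8 and 11.2, so 3 KO libraries were above all WT libraries and KO4 was below them.

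The same core proteins bind telomerase RNA, so telomerase partners were read alongside. Tert, the reverse transcriptase gene, was at 0 to 1.54 RPKM in WT and 0 to 0.542 in KO and was not tested. Naf1, Shq1 and Wrap53, which act in assembly or localization of such particles, had log2 differences of 0.02 ± 0.29, -0.86 ± 0.96 and 0.59 ± 1.05, all within their SE of 0. KO3 listed Wrap53 at 0 and Shq1 at 0.0223 RPKM.

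Box C/D snoRNP genes were all 5 above 0, with the largest difference in the U3-specific subunit. Rrp9 (27966) encodes the protein found only in the U3 snoRNP. It was at 10.3, 14.2, 15.1 and 19.0 RPKM in the WT libraries, with KO values of 45.4, 38.8, 26.2 and 26.6. The lane 4 libraries KO1 and KO2 were the highest, and KO3 and KO4 were also above every WT library. Means were 14.7 ± 3.57 and 34.2 ± 9.45 RPKM (SD, n = 4), a 2.33-fold ratio, with a log2 difference of 1.16 ± 0.28 and a limma adjusted p of 0.441.

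Fbl (14113), the methyltransferase fibrillarin, was at 271, 386, 395 and 291 RPKM in the WT libraries, with KO values of 456, 417, 505 and 442. The groups did not overlap, though KO2 lay close to WT3, and the log2 difference was 0.45 ± 0.17 (limma adjusted p = 0.627). Snu13 (20826), which binds the kink-turn of these RNAs, had 3 KO libraries above all WT libraries and a log2 difference of 0.36 ± 0.20. The paired scaffold proteins differed least: Nop56 (67134) had 0.13 ± 0.17 and Nop58 (55989) had 0.11 ± 0.18. Nop58, the most abundant C/D member apart from Fbl, was at 262 to 325 RPKM in the WT libraries, with KO values of 319, 248, 407 and 334, and its log2 difference took the other sign with quantile normalization (-0.0057) and in lane 4 alone (-0.08). Among these 5 genes the ratio of KO to WT means ran from 1.09 for Nop58 to 2.33 for Rrp9.

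**Figure D2:**
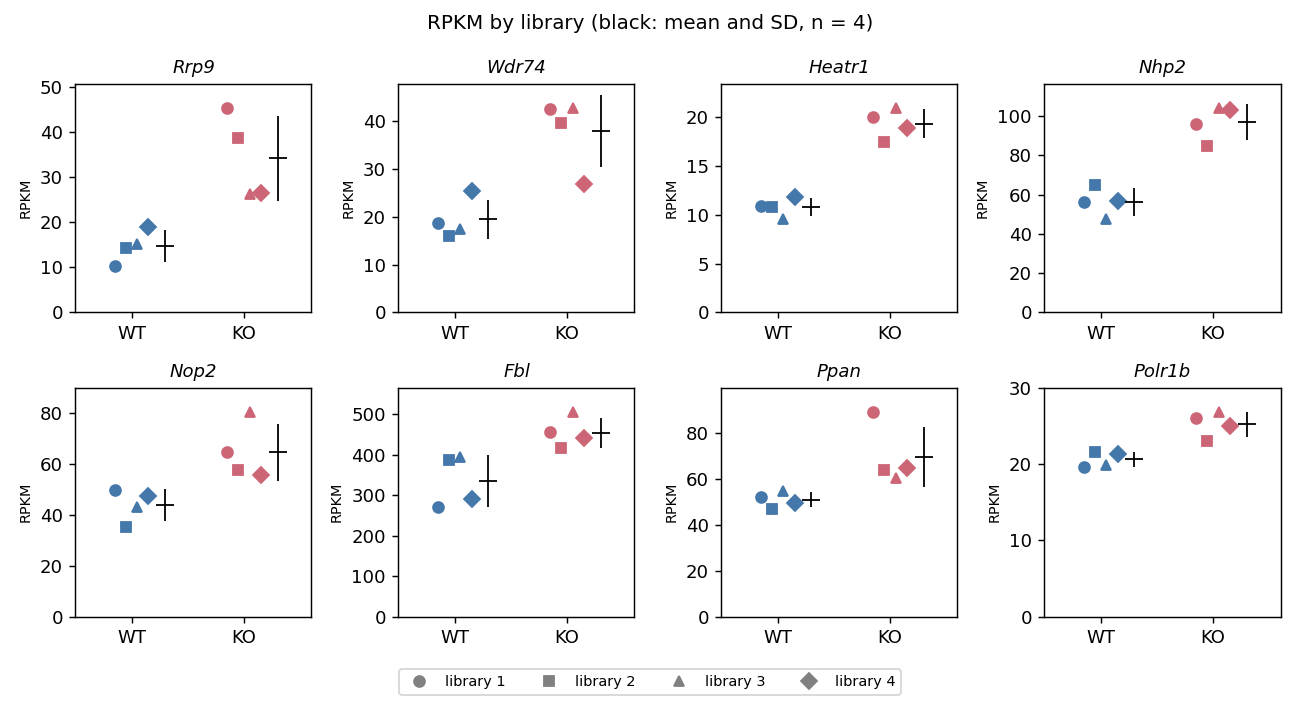
RPKM in each of the 4 WT and 4 KO libraries for the 8 members whose groups do not overlap, with the mean and SD in black. The ratio of KO to WT means ran from 1.22 (Polr1b) to 2.33 (Rrp9), and KO4 lies close to the highest WT library in Wdr74.

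The small subunit processome and late small subunit factors numbered 12 members, 9 of them above 0. Heatr1 (217995), the homologue of yeast UTP10, a large scaffold of the processome, stood out for its tightness. It was at 10.9, 10.8, 9.62 and 11.8 RPKM in the WT libraries, with KO values of 20.1, 17.5, 20.9 and 18.9. The groups were far apart relative to their spread, with means of 10.8 ± 0.899 and 19.4 ± 1.49 RPKM (SD, n = 4), a 1.79-fold ratio; the log2 difference was 0.79 ± 0.23, with a limma adjusted p of 0.515. KO3 and KO4 lay within or just beside the range of KO1 and KO2.

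The other 11 members of the role overlapped between groups, and their differences ran from -0.36 to 0.45. Utp4 (21771), another processome subunit, was lowest: it was at 18.5 to 37.0 RPKM in the WT libraries, with KO values of 33.5, 27.3, 6.50 and 31.0, with a log2 difference of -0.36 ± 0.48 that became 0.15 without KO3. Imp3 (102462), a U3 snoRNP partner and the most abundant of the role, was at 68.3 to 94.5 RPKM in the WT libraries, with KO values of 92.9, 96.2, 119 and 44.2. Its log2 difference was 0.02 ± 0.29 and took the other sign with quantile normalization. The processome gene Utp20 and the late factor genes Bysl and Rrp12 had differences of 0.45 ± 0.37, 0.45 ± 0.37 and 0.42 ± 0.52. Their KO libraries ran from 9.92 to 27.9, from 6.92 to 22.0 and up to 34.9 RPKM, wider than WT in each gene. Those below 0 beside Utp4 were Imp4 (-0.01 ± 0.34) and the export factor gene Ltv1 (-0.15 ± 0.24).

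Large subunit factors were 15 members, 13 of them above 0, with a median log2 difference of 0.37. Wdr74 (107071) encodes a WD-repeat protein of nuclear pre-60S particles. Its values were 18.8, 16.0, 17.4 and 25.4 RPKM in WT and 42.6, 39.6, 42.7 and 26.8 in KO. KO4 was only just above WT4, the other 3 KO libraries were well above, and the log2 difference was 0.93 ± 0.24 (limma adjusted p = 0.441).

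Nop2 (110109), a 28S ribosomal RNA methyltransferase, was at 49.7, 35.2, 43.1 and 47.6 RPKM in the WT libraries, with KO values of 64.6, 57.7, 80.3 and 55.8, a log2 difference of 0.54 ± 0.20. Ppan (235036), a factor of early pre-60S particles, was at 52.2, 47.1, 54.7 and 49.6 RPKM in the WT libraries, with KO values of 89.0, 63.8, 60.2 and 64.9, a difference of 0.43 ± 0.18. Both were without overlap, and their limma adjusted p were 0.627 and 0.647. The PeBoW complex, which Pes1, Bop1 and Wdr12 form together, was uneven: Bop1 had 0.73 ± 0.36, Pes1 0.34 ± 0.23 and Wdr12 0.06 ± 0.18. Gnl3, the nucleolar GTPase nucleostemin, was at 34.3, 13.4, 15.2 and 34.7 RPKM in the WT libraries, with KO values of 42.4, 34.5, 65.3 and 25.6, a wide spread in both groups (0.80 ± 0.39).

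Noc2l (57741), the most abundant member of the role, was at 143 to 313 RPKM in WT and at 186 to 282 in KO, so that the KO range lay inside that of WT (0.22 ± 0.27). Ebna1bp2 (69072), which acts in pre-60S assembly, was at 10.8 to 14.6 RPKM in WT and at 23.8, 18.1 and 20.4 in KO1, KO2 and KO4, all above WT, but KO3 listed it at 0. It was the sole member listed at 0 in any library. Its log2 difference was -0.46 ± 0.92 with all libraries and 0.65 without KO3.

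RNA polymerase I genes had the smallest median difference of the 6 roles, with a median log2 difference of 0.07 and 0 of 6 members at an unadjusted p under 0.05. Polr1b (20017), the second-largest subunit, had no overlap: it was at 19.7, 21.6, 19.8 and 21.4 RPKM in the WT libraries, with KO values of 26.1, 23.0, 26.8 and 25.0. The step was small but even, a 1.22-fold ratio, and the log2 difference was 0.28 ± 0.19 (limma adjusted p = 0.731). Polr1c (20016), a subunit shared with RNA polymerase III, was at 25.2 to 45.8 RPKM in WT and 38.5 to 53.4 in KO (0.43 ± 0.23). The largest subunit gene Polr1a had 0.07 ± 0.29, and Tcof1, which encodes the nucleolar protein treacle, had 0.01 ± 0.46. Rrn3 (106298), the initiation factor that links the polymerase to its promoter, was at 22.9 to 30.2 RPKM in WT and 22.5 to 26.7 in KO (-0.13 ± 0.20). Thus the initiation factor and the largest subunit were within 1 SE of 0 on this scale.

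The 6 nucleolar chaperones and scaffolds were all above 0 and none was at an unadjusted p under 0.05 or without overlap. Npm1 (18148), nucleophosmin, the most abundant of the 48, was at 1429, 1599, 1701 and 1539 RPKM in the WT libraries, with KO values of 2380, 1732, 1940 and 1339. KO1 was far above WT and KO4 was the lowest of all 8, with a log2 difference of 0.21 ± 0.17. Npm3 (18150), a relative of nucleophosmin, had the largest difference of the role, 0.37 ± 0.21, with 141, 93.9, 154 and 187 RPKM in WT and 186, 160, 178 and 201 in KO. Nolc1, a snoRNP chaperone, had 0.35 ± 0.28, and nucleolin (Ncl) and the helicase gene Ddx21 had 0.21 ± 0.20 and 0.21 ± 0.19. Mybbp1a (18432), a nucleolar MYB-binding protein gene, had 0.07 ± 0.22, which took the other sign with quantile normalization (-0.012).

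The libraries did not contribute evenly. KO1 lay above all WT libraries in 32 of 48 members, KO2 in 24, KO3 in 23 and KO4 in 17. By member, 8 had all 4 KO libraries above WT, 8 had 3, 15 had 2, 10 had 1 and 7 had 0. KO1 held the highest of the 8 values in 19 members and KO3 in 17. KO3 also held the lowest in 10, and KO4, WT1 and WT2 each held it in 9. Of all genes tested, 2.05% had all 4 KO libraries above WT. The other counts by library were not made over all genes, so they are not read as particular to the members. The mean level of the 48 members, as log2(RPKM + 1) minus that of all genes tested, was 1.56, 1.76, 1.57 and 1.70 in WT1 to WT4 and 2.26, 1.92, 2.35 and 1.90 in KO1 to KO4. On these means the KO levels did not overlap those of WT, but the mean of all genes includes genes listed at 0, of which KO3 and KO4 list many. With medians in place of means, the members minus all genes, each relative to the WT mean, were at -0.07, -0.05, -0.02 and 0.08 in WT1 to WT4 and at 0.57, 0.29, 0.49 and 0.08 in KO1 to KO4. On medians KO1, KO2 and KO3 were above every WT library and KO4 was level with WT4. In KO3 the median of all genes was itself low, at -0.25 relative to the WT mean, where the other libraries were at -0.05 to 0.04. The members' own medians relative to the WT mean were 0.51, 0.32, 0.24 and 0.04 in KO1 to KO4. In WT1 to WT4 those medians were -0.04, -0.08, 0.01 and 0.13, so KO4 was below WT4. The part of the genes listed at 0 in the levels by means was not tested. In lane 4 alone, with KO1 and KO2 as the only KO libraries, 14 members were higher at an unadjusted p under 0.05, where 4.95% of all genes were, and the median of the members was 0.38 against -0.02 for all genes. In that lane 19 members had no overlap, where 10.7% of all genes had none. Without WT2, KO3 and KO4, 15 members were higher at an unadjusted p under 0.05, against 6.11% of all genes, and 23 had no overlap, against 14.5%.

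**Figure D3:**
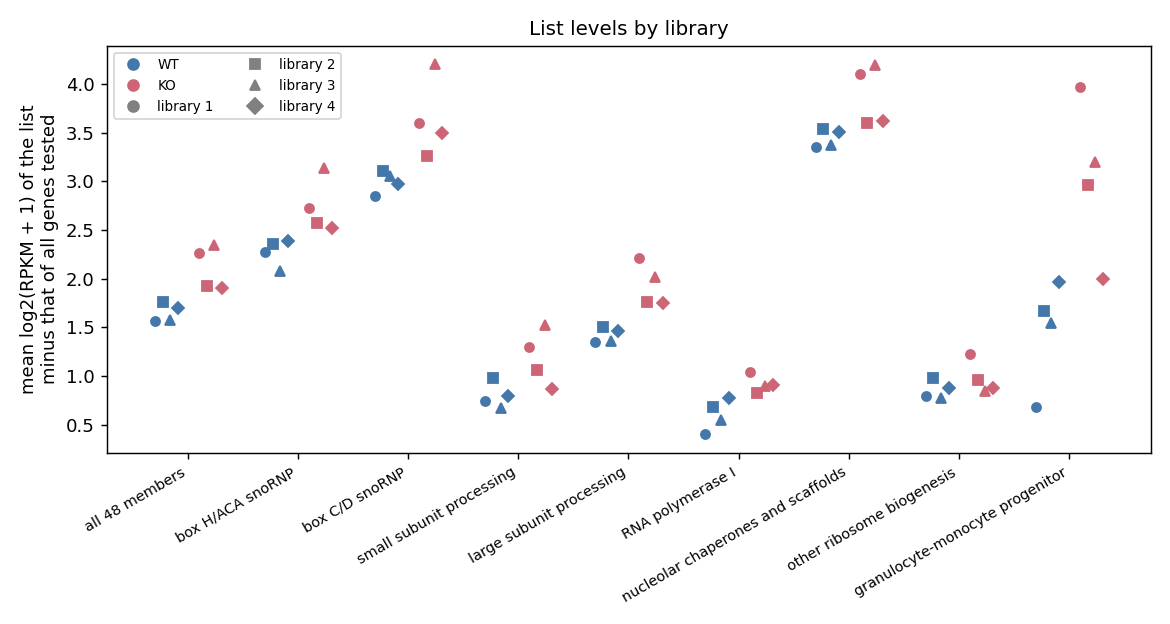
Mean log2(RPKM + 1) of each list minus that of all genes tested, by library; colours give the group and symbols the library number. For the 48 members the WT libraries sit between 1.56 and 1.76 and the KO libraries between 1.90 and 2.35, whereas the 118 other ribosome biogenesis genes overlap between groups; on medians (in the text) KO4 is level with WT4.

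Other genes of the same machinery did not share the pattern to the same degree. From a list of 121 further ribosome biogenesis genes, 118 were matched and tested. At an unadjusted p under 0.05, 2 of 118 (1.69%) were higher and 0 were lower, and 0 passed the adjusted threshold; the share that was higher was below the 2.77% of all genes tested. Their median log2 difference was 0.02, which was 0.16 above that of all genes, and 63 of 118 were above 0, where 39% of all genes tested were. These genes had a median of 28.0 RPKM. Among all genes with a mean of at least 20 RPKM, the median difference was -0.01 and 48.7% were above 0, so little of the gap remained beside that class.

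The 2 genes were Rbm28 and Wdr46. Rbm28, a nucleolar RNA-binding protein gene, had WT values of 19.9, 13.9, 22.4 and 25.2 RPKM and KO values of 34.0, 29.8, 30.7 and 45.4, without overlap (0.76 ± 0.25, limma adjusted p = 0.591). Wdr46, a small subunit processome gene, was at 22.8, 17.4, 38.1 and 36.4 RPKM in the WT libraries, with KO values of 53.8, 41.8, 35.8 and 54.1 (0.72 ± 0.29, adjusted p = 0.634). Ruvbl1, an ATPase of the complex that assembles box C/D snoRNPs, was at 87.1 to 102 RPKM in the WT libraries, with KO values of 112, 114, 173 and 108, also without overlap (0.41 ± 0.19). Nol7 was lower in KO and without overlap, at 31.3 to 45.3 RPKM in WT and 22.6 to 30.2 in KO (-0.32 ± 0.21). Of the 118 genes, 2 (1.69%) had all KO values above all WT values and 1 had them below. Among all genes tested, 2.05% had them above and 3.88% below, so these genes are not read as a result about the list. Ruvbl1 and Nol7 were named after their values had been seen. The 79 cytosolic ribosomal protein genes, the products that these factors assemble, were abundant, with a median of 858 RPKM. Their median log2 difference was -0.03, which was 0.11 above that of all genes but not above the -0.01 of genes with a mean of at least 20 RPKM. Of the ribosomal protein genes, 34 of 79 were above 0, where 39% of all genes tested and 48.7% of that abundant class were. At an unadjusted limma p under 0.05, 2 were higher (Rpl18 and Rpl41) and 2 lower (Rps27a and Rpl38). That was 2.53% in each direction, where 2.77% of all genes tested were higher and 4.74% were lower. Ribosomal protein genes have many processed pseudogenes, so their reads may be split.

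**Figure D4:**
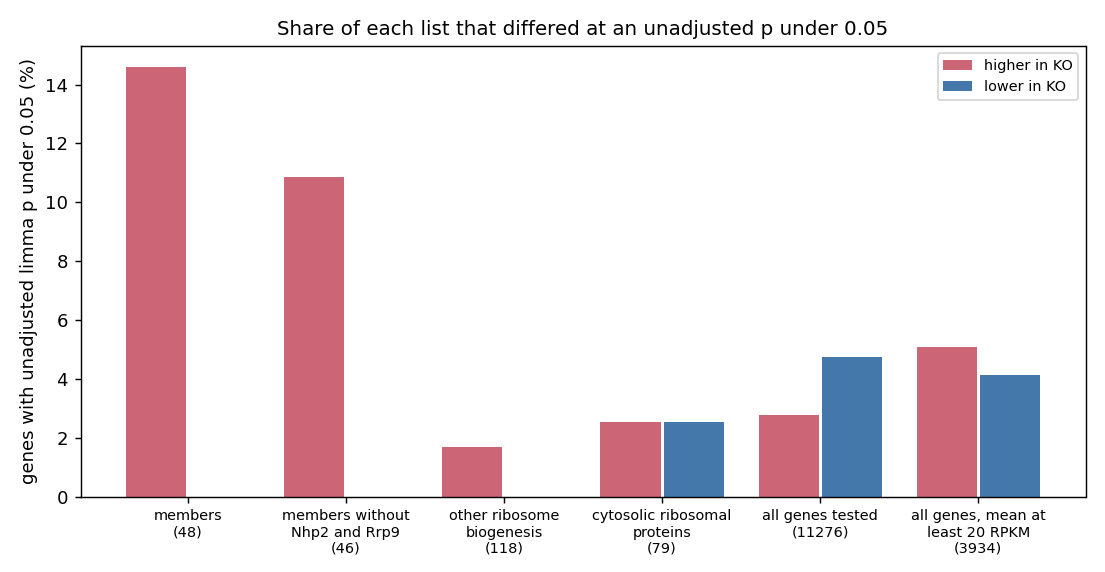
Percentage of each list at an unadjusted limma p under 0.05, higher (red) or lower (blue) in KO; list sizes are in brackets on the axis. The 48 members reach 14.6% higher, and 10.9% without Nhp2 and Rrp9, against 1.69% of the other ribosome biogenesis genes and 2.77% of all genes tested.

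Myc and markers of cell types were read in the same libraries. Myc was at 74.7, 91.0, 102 and 129 RPKM in the WT libraries, with KO values of 174, 153, 107 and 134; KO3 lay below WT4, and the log2 difference was 0.52 ± 0.22 (limma adjusted p = 0.645). Granulocyte-monocyte progenitor markers, expressed in progenitors already committed to myeloid fates, were higher in KO. Of these markers 9 of 9 were above 0, where 39% of all genes tested were. At an unadjusted limma p under 0.05, 7 of 9 were higher, where 2.77% of all genes tested were. Their summed level was 629 to 1859 RPKM in WT and 2133 to 8030 in KO, and no marker of that list was listed at 0 in all libraries, though KO4 listed Fcgr3 at 0. Of 9 mature neutrophil and monocyte markers, 3 passed the filter, with a median log2 difference of 1.87. Itgam was at 0.707 to 2.76 RPKM in WT and at 5.92 to 22.8 in KO, without overlap (1.87 ± 0.56), S100a9 had 1.95 ± 1.09 and Lyz2 had -0.04 ± 0.19. The sum of the 9 was 131 to 176 RPKM in WT and 151 to 198 in KO, of which Lyz2 made up 119 to 175, and Retnlg was listed at 0 in every library. Of 12 stem cell and sorting markers, 0 were above 0, where 39% of all genes tested were. At an unadjusted limma p under 0.05, 4 of 12 were lower (Flt3, Procr, Mecom and Hlf), where 4.74% of all genes tested were. The sorting markers Kit (-0.13 ± 0.24) and Ly6a (-0.18 ± 0.33) were within 1 SE of 0, as were Cd34 (-0.17 ± 0.18) and Gata2 (-0.09 ± 0.19). The summed level of the 12 was 549 to 652 RPKM in WT and 357 to 582 in KO. Fewer cells of a type and less RNA per cell cannot be told apart in these bulk samples, and the part of the cell mixture in the members' difference was not tested.

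Gene structure bears on which values are firm. Of the 48 members, 8 hold at least 1 small nucleolar RNA gene within their span in the RefSeq table (Dkc1, Nop56, Nop58, Wdr43, Tsr1, Ppan, Gnl3 and Ncl), and of these Ppan alone was without overlap between the groups. Nhp2 overlaps Rmnd5b in its span and Heatr1 overlaps a pseudogene, Gm5928. Other members also overlap protein-coding genes, among them Bop1 (Mroh1 and Scx), Dkc1 (Mpp1), Ebna1bp2 (Cfap57) and Gnl3 (Glt8d1). Because no source used here gives the strand setting of the counting, reads from such overlaps cannot be told apart. The RefSeq table also holds pseudogenes named for Fbl (Fbl-ps2) and for Npm3 (Npm3-ps1), whose reads could be counted to either copy. Pseudogenes elsewhere in the genome under other names were not searched for.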

How the data were processed

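RNA was measured by poly(A) RNA sequencing in 8 LSK libraries, 4 WT and 4 KO, grouped by title and genotype in the labels. TopHat, edgeR and build mm9 are named, without versions or roles, per the submitters' processing notes; how reads were counted is not stated there. The authors deposited RPKM, a unit inferred here because values multiplied by the longest GENCODE vM21 transcript summed to 1.14 to 1.17 M per library. Of 24112 Entrez IDs, 24029 (99.7%) had a symbol in the RefSeq GRCm38.p6 table, used for names, neighbours and promoter sequences; the build differs from mm9.

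Depth was estimated from the steps between low values, up to 0.2 RPKM: in each library 49 to 95 values were compared, and 50.6% to 60.5% of them came out whole with a tolerance of 0.03 reads. It is approximate, so no count test was run and no counting interval is given.

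The test was limma 3.58.1 in R 4.3.3 on log2(RPKM + 1), with genotype as the term, all 8 libraries, a variance trend and robust moderation. Genes entered when 4 or more libraries reached 1 RPKM, and Benjamini-Hochberg adjustment covered all 11276. This scale understates the change of low genes. Levels are mean ± SD and log2 differences are KO minus WT ± SE. Lists are described by counts and medians beside those of all genes. The test was tried on simulated data of 11276 genes with 200 changed: it recovered 1.95%, 57.2% and 88.8% of genes changed by 1, 2 and 4 on the log2 scale and made 0 calls when no gene was changed, with on average 0.5, 5.3 and 9.3 false calls in the other cases.

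The members and lists were chosen with earlier results of these data known. Members were named by a rule: Nhp2 and Rrp9, those at an unadjusted p under 0.05 or without overlap, and in each role the most abundant and those of highest and lowest difference. Others are named as examples of their role, some after their values were seen. Alternatives were other filters, pseudocount and normalization, library weights, lane, replicate number and leaving out libraries. No library was a copy of another: the closest, KO3 and KO4, had equal values in 6.86% of genes.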

Additional observations from a re-analysis of the deposited data

Results flagged for a closer look

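In 3 of 54 groups of 4 library values examined, 1 library lay far from the other 3, about the number that chance gives at 1 in 20 groups. Nop10 was at 47.1 RPKM in KO3, where the other 3 KO libraries were at 146 to 157. Dkc1 was at 254 RPKM in KO3, with the other KO libraries at 128 to 135. Ppan was at 89.0 RPKM in KO1, against 60.2 to 64.9 in the other KO libraries. Nop10 and Dkc1 encode subunits of 1 particle and lay on opposite sides of the other KO libraries in KO3, the library that lists the most genes at 0.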

How the results depend on the processing

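The median difference between members and all genes (0.37) was between 0.28 and 0.48 when 1 library was left out and 0.19 with quantile normalization. The count of members higher at an unadjusted p under 0.05 (7) ran from 5 to 12 with 1 library left out, where 1.91% to 4.02% of all genes were. It was 11 without KO3 (4.02% of all genes) and 12 without KO4 (3.49%). With library weights it was 14 (8.13%), in lane 4 alone 14 (4.95%) and without WT2, KO3 and KO4 15 (6.11%). Members without overlap (8) ran from 8 to 13 with 1 library left out, where 2.70% to 4.47% of all genes had none. They were 13 without KO4 (4.47%), 19 in lane 4 alone (10.7%) and 23 without those 3 libraries (14.5%). With quantile normalization they were 7 (2.55%), and among members with a mean of at least 20 RPKM they were 7 of 39 (3.23%). No member was lower at that threshold under any alternative run. Genes past the adjusted threshold (0) numbered 164 with library weights, 2 in lane 4 alone, 3 without the 3 libraries and 0 to 2 with 1 library left out (2 without KO3).

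Signs were reversed for 6 named members, and the cause was not tested. Nop10 was at 0.066 with median centring, 0.25 with weights, 0.38 with lane as a covariate or lane 4 alone, 0.28 without the 3 libraries, and from -0.20 to 0.38 (without KO3) with 1 library left out. Nop58 was at -0.0057 with quantile normalization, -0.14 with weights, -0.084 with both lane settings, -0.043 without the 3 libraries, and from -0.0023 (without KO3) to 0.24 with 1 left out. Imp3 was at -0.045 with quantile normalization and from -0.15 (without KO3) to 0.32 with 1 left out. Utp4 was at 0.045 with weights, 0.14 for both lane settings, 0.080 without the 3 libraries and from -0.58 to 0.15 (without KO3) with 1 left out. Ebna1bp2 was at 0.44, 0.65 and 0.58 under those settings and from -0.90 to 0.65 (without KO3). Mybbp1a was at -0.012 with quantile normalization and from -0.12 (without KO1) to 0.22.

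Replicate numbers did not pair the libraries: same-numbered WT and KO libraries had correlations of deviations of -0.05, -0.08, -0.04 and -0.06. With the replicate number as a block, the median difference was 0.37, 6 members were higher at an unadjusted p under 0.05 and 0 genes passed the adjusted threshold. Nhp2, Rrp9 and Wdr74 kept an unadjusted limma p under 0.05 in 18 of 18 alternatives, and Heatr1 did in 17 of 17. The alternatives refit the same libraries, so this is no independent support. The share of all genes that kept such a p was not counted. Heatr1 and Ebna1bp2 gave no value with a filter of 20 RPKM. Low values, genes listed at 0 and approximate depth limit what can be said of weakly expressed genes.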
